A study of Homo sapiens with 8 samples.

Results

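The collagen genes were examined for peaks of DAXX, of the DNA methyltransferase DNMT1 and of a histone mark written here as H3(Lys4) in PC3 cells, a human prostate cancer line derived from a bone metastasis. A gene was a member when its GENCODE symbol was COL, a number, A and a number and it was protein-coding, which gave 44 of 19785 protein-coding genes. The labels give the mark as DMHH3(Lys4), without spelling out the prefix, so its methylation state is not named here. The genes were kept apart as 11 fibrillar collagens, 6 basement membrane collagens (COL4A1 to COL4A6) and 27 other collagens. Peaks were counted inside each gene, when the peak centre lay between its first and last annotated base, and within 10 kb of a transcription start site (TSS).

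The control cells, called WT, carried no DAXX knockdown. The sample labels give them as wild type, while the series text speaks of a control shRNA line. The K/D cells were a stable line in which a lentiviral shRNA targets DAXX, kept under puromycin. Whether the WT libraries came from cells with a control virus, or under the same selection, is therefore not settled. Each group was 1 chromatin immunoprecipitation library, so no value has a replicate and none was tested. Intervals are exact 95% intervals, binomial for shares and Poisson for counts per length, and cover counting error only. The 6 libraries held 12050101 to 18705056 tags. The number of peaks on the assembled chromosomes was 59761 (WT) and 42876 (K/D) for DAXX, 2234 and 595 for DNMT1, and 72064 and 72181 for H3(Lys4). A peak absent from a list was not called there, which does not show that the place was empty. Regions of H3(Lys4) with any part within 1 kb of a TSS were present at 5 of 5 epithelial marker genes in both lines. They were present at 0 of 3 blood marker genes in both lines, and at 5 of 6 stromal marker genes in WT and 3 of 6 in K/D. KLK3, a marker of luminal prostate cells, had none in either line.

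Collagens are triple helices of 3 alpha chains, each chain the product of its own gene. Fibrillar collagens assemble into the banded fibrils of bone, skin and tendon, type IV chains form the sheet-like network of basement membranes, and the other types decorate fibrils, anchor epithelia or span the plasma membrane. Bone, the site from which PC3 was taken, is rich in type I collagen. DAXX is a chaperone of the histone variant H3.3 and a partner of transcriptional repressors, and DNMT1 copies DNA methylation after replication.

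In WT cells 162 distinct DAXX peaks lay inside 32 of the 44 genes, and in K/D cells 106 lay inside 29. Genes with a DAXX peak inside made up 72.7% of collagens in WT and 65.9% in K/D, against 48.4% and 41.6% of all protein-coding genes. Collagen genes are long, with a median length of 145 kb against 27 kb for all genes, and per length the excess was absent. There were 2.42 WT DAXX peaks per 100 kb of collagen gene (2.06 to 2.82) and 2.51 per 100 kb over all genes. In K/D cells the densities were 1.58 (1.30 to 1.92) and 1.75. The lower K/D count came with a shorter K/D list, although the K/D library had more tags (18210051) than the WT library (15208845). In WT 15.77% of the DAXX tags lay in peaks and in K/D 6.83%, and the part of this in the counts was not tested. With the WT list limited to the length of the K/D list, 114 WT peaks stood against 106 in K/D.

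Of the 162 WT DAXX peaks, 155 lay outside the exons of the basic protein-coding transcripts (95.7%, 91.3 to 98.2), 3 in coding exons and 4 in untranslated regions. Only 5 lay within 1 kb of a TSS of the gene, and 139 (85.8%, 79.5 to 90.8) lay more than 10 kb from one. In K/D cells 103 of 106 lay outside exons and 94 more than 10 kb from a TSS. Inside all protein-coding genes, 92.4% of WT DAXX peaks lay outside exons and 69.4% more than 10 kb from a TSS of the gene, and inside genes of at least 100 kb the shares were 96.5% and 84.0%. Both collagen shares were closer to those of long genes than to those of all genes. Within 1 kb of a TSS, 7 of 44 collagens had a WT DAXX peak (15.9%, against 25.7% of all genes). In K/D 5 had one (11.4%, against 19.2%). Both shares were below those of all genes, from small counts without an interval. In the wider window of 10 kb the collagens were near the background. A WT DAXX peak within 10 kb of a TSS was found for 22 of 44 collagens (50%, 34.6 to 65.4), against 51.2% of all genes, and a K/D peak for 18 (40.9%, 26.3 to 56.8), against 41.8%. With lists of equal length this order turned, with 15 collagens in WT (34.1%) and 18 in K/D. Over all genes it turned as well, with 7846 in WT (39.7%) and 8272 in K/D (41.8%).

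The DAXX peaks were unevenly spread over the genes, whose lengths ran from 17.3 kb (COL9A2) to 494 kb (COL25A1). The 5 genes with the most WT peaks, COL4A6, COL21A1, COL5A2, COL4A2 and COL8A1, each held 10 or more and together held 69 of the 162 (42.6%). At the other end, 10 of the 44 collagens held no DAXX peak inside the gene in either line, against 9264 of all 19785 genes. These collagens were COL4A4, COL6A3, COL6A6, COL9A1, COL9A2, COL10A1, COL11A1, COL11A2, COL22A1 and COL25A1. WT held more peaks than K/D in 22 genes, K/D held more in 6, and 6 held equal numbers. The WT list is the longer one, and this count was not made over all genes or with lists of equal length. The plot of DAXX peaks by gene shows the spread over the collagens.

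**Figure D1:**
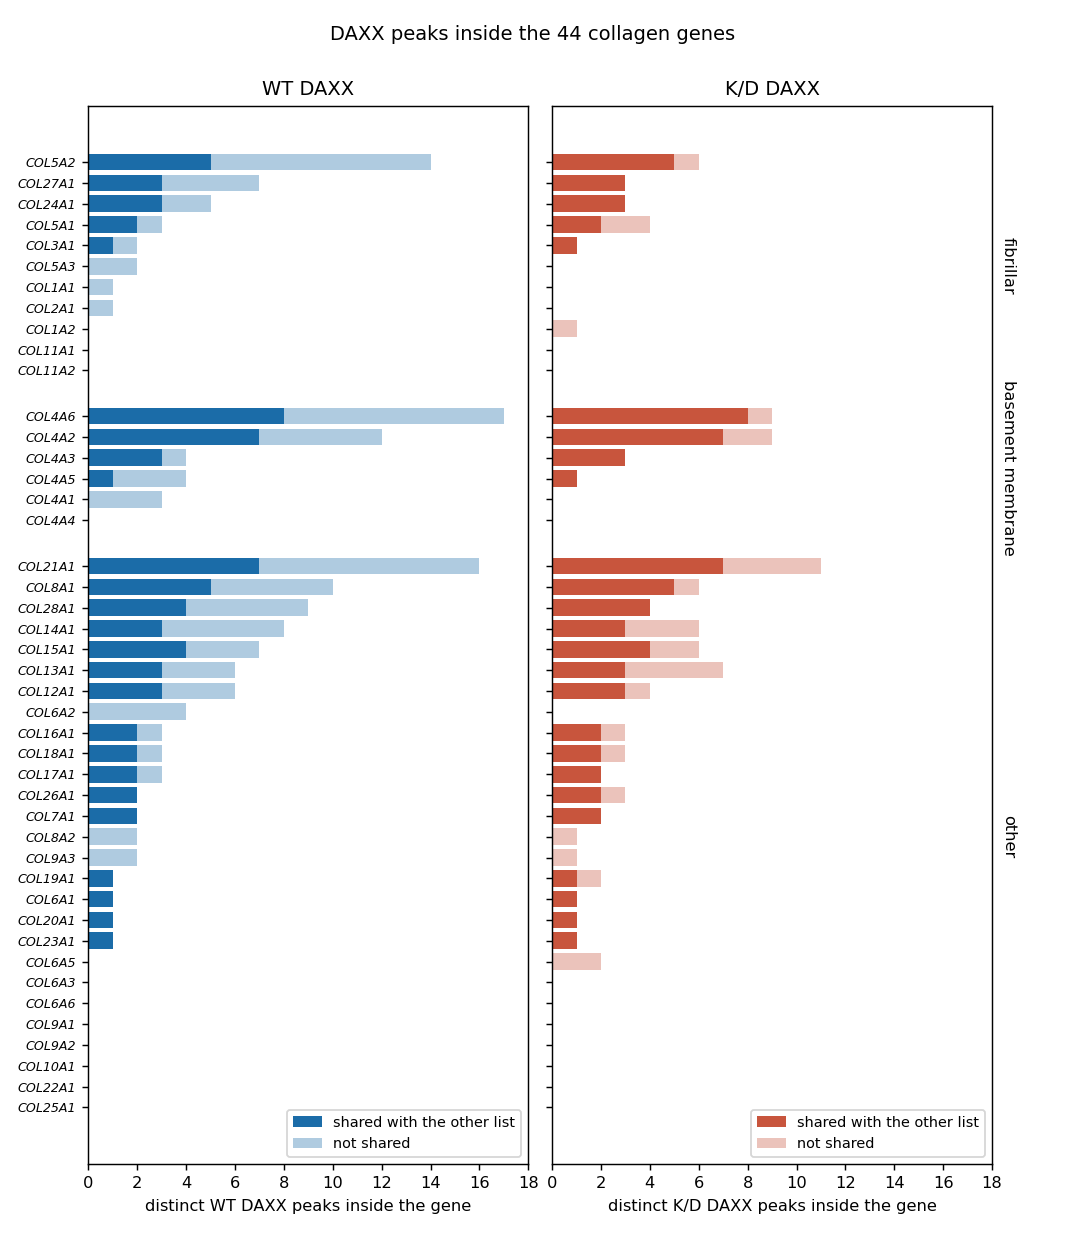
Distinct DAXX peaks inside each of the 44 collagen genes (horizontal axis, number of peaks) in the WT list (left) and the K/D list (right), with genes ordered within their class by the WT count. Dark bars are peaks shared with the other list by at least 1 bp and pale bars are not shared. COL4A6 reaches 17 peaks in WT and 9 in K/D, and most of the pale bar length lies in the WT panel.

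A peak was called shared when it had at least 1 bp in common with a peak of the other line. Of the 162 WT DAXX peaks inside collagens, 76 were shared (46.9%, 39.0 to 54.9), against 48.4% of all WT DAXX peaks. Of the 106 K/D peaks, 76 were shared (71.7%, 62.1 to 80.0), against 67.4% of all K/D peaks. Sharing followed the order of the deposited lists, whose place was used in place of strength since the files hold no peak height. Among the earliest 20% of WT peaks, 28 of 29 collagen peaks were shared (96.6%, 82.2 to 99.9), against 86.5% of all peaks there. Among the last 20%, 4 of 32 were (12.5%, 3.51 to 29.0), against 17.6%. In each of the 5 steps of the WT list the interval of the collagens contained the value of all peaks. The WT peaks without a K/D partner were rarely near misses, since 7 of the 86 (8.14%) had a K/D peak centre within 1 kb, against 9.67% over the whole list.

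**Figure D2:**
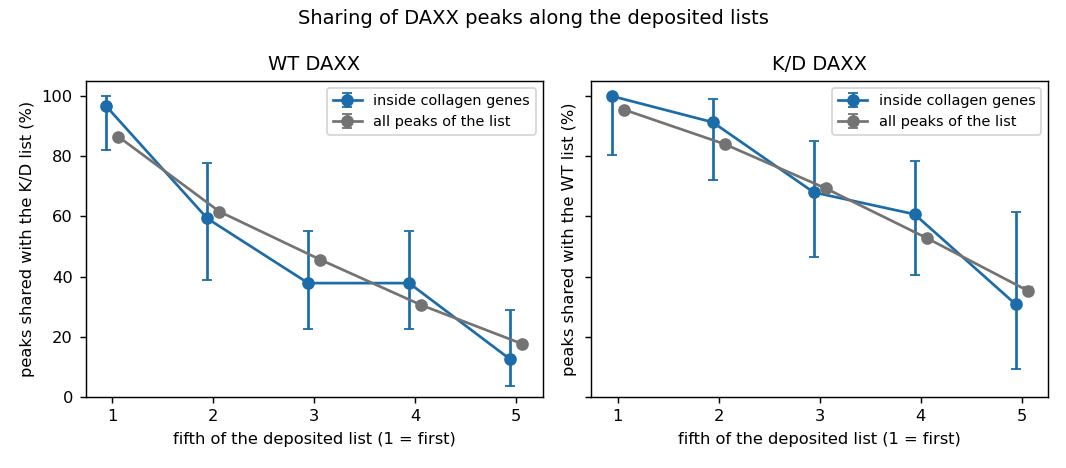
Share of DAXX peaks shared with the other line (vertical axis, percent) in 5 equal steps of the deposited list (horizontal axis, 1 is the start of the list), for peaks inside collagen genes (blue, bars are exact 95% intervals) and all peaks of the list (grey). Both lines of the WT panel run downwards, from 96.6% to 12.5% for collagens and from 86.5% to 17.6% for all peaks.

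The fibrillar collagens, which form the fibrils of bone, skin and cartilage, held 35 DAXX peaks in WT and 18 in K/D, 14 of them shared. That is 2.47 per 100 kb in WT (1.72 to 3.43) and 1.27 in K/D (0.752 to 2.01). The shared peaks were 40% of the WT peaks (23.9 to 57.9) and 77.8% of the K/D peaks (52.4 to 93.6). With the WT list limited to the K/D length, 27 WT peaks remained to set against 18. The class was led by COL5A2, which encodes a chain of type V collagen, a regulator of fibril diameter. COL5A2 (193.4 kb, chr2:189896624-190090038, minus strand) held 14 DAXX peaks in WT and 6 in K/D, 5 of them shared. It held no DNMT1 peak in either line. It also held 21 H3(Lys4) regions in WT and 16 in K/D, covering 35.2 and 18.9 kb. No DAXX peak lay within 10 kb of a COL5A2 TSS in either line.

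COL27A1 and COL24A1 encode fibrillar chains of cartilage and developing bone. COL27A1 held 7 WT and 3 K/D DAXX peaks, and COL24A1 held 5 and 3, with every K/D peak inside the 2 genes shared. Both also had a K/D peak outside the gene near a TSS where WT had none within 10 kb: 1551 bp upstream in COL27A1 and 315 bp upstream in COL24A1. COL5A1, the partner chain of COL5A2, held 3 WT and 4 K/D peaks. COL3A1, the type III chain of skin and vessels, held 2 and 1, and COL5A3 held 2 and 0.

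Type I collagen, the bulk protein of bone, is encoded by 2 short genes. Each held 0 or 1 DAXX peak per line, too few to tell whether peaks are short per length. Per 100 kb, COL1A1 had 5.7 WT and 0 K/D DAXX peaks, and COL1A2 had 0 and 2.75. Over all genes the values were 2.51 and 1.75. COL1A1 (17.5 kb) held 1 WT DAXX peak, 629 bp past a TSS and late in the list at place 43923 of 59778, and no K/D peak. The nearest K/D peak lay 8841 bp upstream. COL1A2 (36.3 kb) held no WT peak and 1 K/D peak, 5923 bp downstream of a TSS, at place 39001 of 42894. COL6A5, a type VI chain, was the only other collagen with K/D but no WT DAXX peaks inside it or near a TSS, and held 2.

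The basement membrane collagens held 40 DAXX peaks in WT and 22 in K/D, with 19 shared. Their WT density was 3.28 per 100 kb (2.35 to 4.47), and their K/D density was 1.81 (1.13 to 2.74). The interval of the WT density contained the 2.51 of all genes. With the WT list limited to the K/D length, 29 WT peaks stood against 22. Of the 22 K/D peaks, 19 were shared (86.4%, 65.1 to 97.1), and of the 40 WT peaks 19 (47.5%, 31.5 to 63.9). Within 10 kb of a TSS there was a WT DAXX peak for 2 of the 6 genes and a K/D peak for none. Over all genes the shares were 51.2% and 41.8%. The 6 genes lie in pairs with starts close together, so they are not 6 independent places and no interval is given. The 2 genes with a WT peak, COL4A5 and COL4A6, form such a pair.

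**Figure D3:**
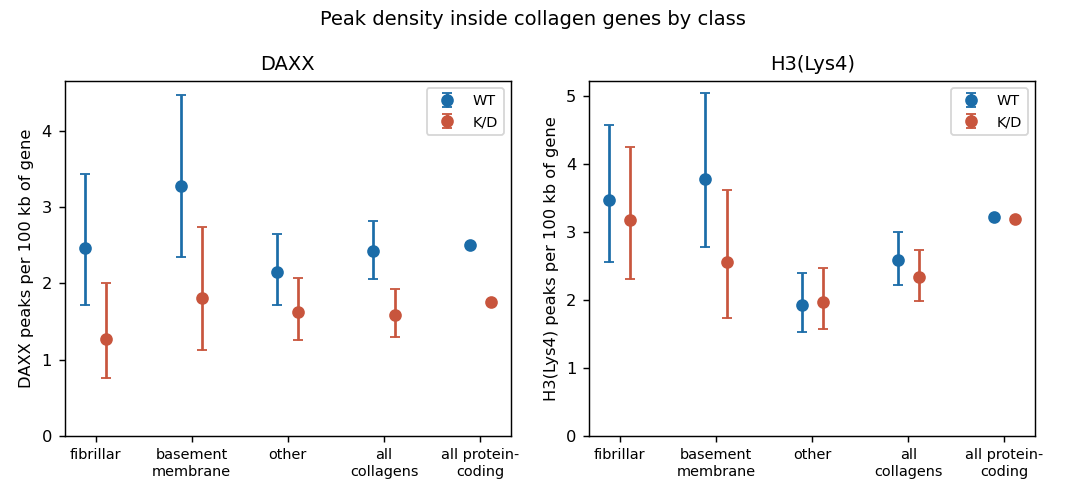
Peaks per 100 kb of gene (vertical axis) for DAXX (left) and H3(Lys4) (right) in WT (blue) and K/D (red), for the 3 collagen classes, all collagens and all protein-coding genes. Bars are exact 95% Poisson intervals of the count. For DAXX the basement membrane class is highest in WT at 3.28 and the interval spans the 2.51 of all genes.

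Type IV genes lie in 3 head-to-head pairs, each pair transcribed in opposite directions from a common promoter. COL4A1 and COL4A2 encode the chains found in nearly all basement membranes, and their closest start sites lie 101 bp apart (chr13, 110959504 and 110959605). The pair held 15 WT and 9 K/D DAXX peaks, 7 of them shared, none within 10 kb of these starts. The peaks were on the COL4A2 side. COL4A2 (207.4 kb) held 12 in WT and 9 in K/D, while COL4A1 (158.2 kb) held 3 and 0.

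COL4A5 and COL4A6 encode chains of a more restricted network, and mutation of COL4A5 causes Alport syndrome. Their closest starts lie 366 bp apart on chromosome X. The pair held 21 WT and 10 K/D DAXX peaks, 9 of them shared. Of these, COL4A6 held 17 in WT and 9 in K/D, and COL4A5 held 4 and 1. Near the common start there were 2 WT peaks within 10 kb and no K/D peak. The nearer WT peak was at chrX:107683927-107684099, 945 bp downstream of this COL4A5 start, and the nearest K/D peak was 10862 bp away.

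COL4A3 and COL4A4, the chains of the kidney glomerulus together with COL4A5, have starts 419 bp apart on chromosome 2. COL4A3 held 4 WT and 3 K/D DAXX peaks, and all 3 K/D peaks were shared. COL4A4 held none in either line. No DAXX peak lay within 10 kb of their starts, the nearest being 23828 bp away in WT and 23838 bp in K/D.

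The other 27 collagens held 87 DAXX peaks in WT and 66 in K/D, 43 of them shared. Here the order of the lines depended on list length, since lists of equal length gave 58 in WT and 66 in K/D. Fibril-associated collagens (FACIT), which coat fibrils, held 37 and 28. Short-chain collagens held 12 and 7, the collagens of the basement membrane zone (COL7A1, COL15A1 and COL18A1) 12 and 11, transmembrane collagens 10 and 10, COL26A1 and COL28A1 together 11 and 7, and beaded filament collagens 5 and 3. The 5 beaded filament genes, which encode type VI chains, included COL6A2 with 4 WT peaks and no K/D peak, while COL6A3 and COL6A6 held none in either line.

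COL21A1, a FACIT gene of 337.5 kb (chr6:55921388-56258892, minus strand), held 16 DAXX peaks in WT and 11 in K/D, 7 of them shared. It held no DNMT1 peak, and 19 H3(Lys4) regions in WT and 22 in K/D. A WT DAXX peak lay 20 bp upstream of a COL21A1 TSS. COL14A1, another FACIT gene on chromosome 8, held 8 and 6, with 3 shared. The earliest collagen peak of the WT list, at place 123, was in intron 45 of COL14A1, and the earliest of the K/D list, at place 138, was also in COL14A1. COL14A1 had 4 H3(Lys4) regions in WT and none in K/D. COL12A1, a FACIT chain of tendon and muscle, held 6 and 4 DAXX peaks, and 8 H3(Lys4) regions in WT against 1 in K/D.

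COL8A1, a short-chain collagen of vessel walls and the cornea, held 10 WT and 6 K/D DAXX peaks, 5 of them shared. COL28A1 held 9 and 4, and every K/D peak was shared. COL15A1, a proteoglycan-bearing collagen of the basement membrane zone, held 7 and 6, with 4 shared. COL13A1, a transmembrane collagen of cell-matrix junctions, held 6 in WT and 7 in K/D, with 3 shared. In 3 of the 7 collagens with a WT DAXX peak within 1 kb of a TSS, a K/D peak lay as near (42.9%, against 53.2% over all genes). They were the short-chain collagen COL8A2 and 2 collagens that attach epithelia to the underlying matrix, COL7A1 and COL17A1. COL8A2 had its nearest peak 43 bp upstream of a TSS in WT and 441 bp downstream in K/D. COL7A1, the anchoring fibril chain, had its nearest peak 364 bp upstream of a TSS in WT and 408 bp upstream in K/D, and both of its peaks in each line were shared. COL17A1, a hemidesmosome protein, had its nearest peak 279 bp upstream in WT and 295 bp upstream in K/D. COL22A1 had no peak of any list inside it or within 10 kb of a TSS.

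**Figure D4:**
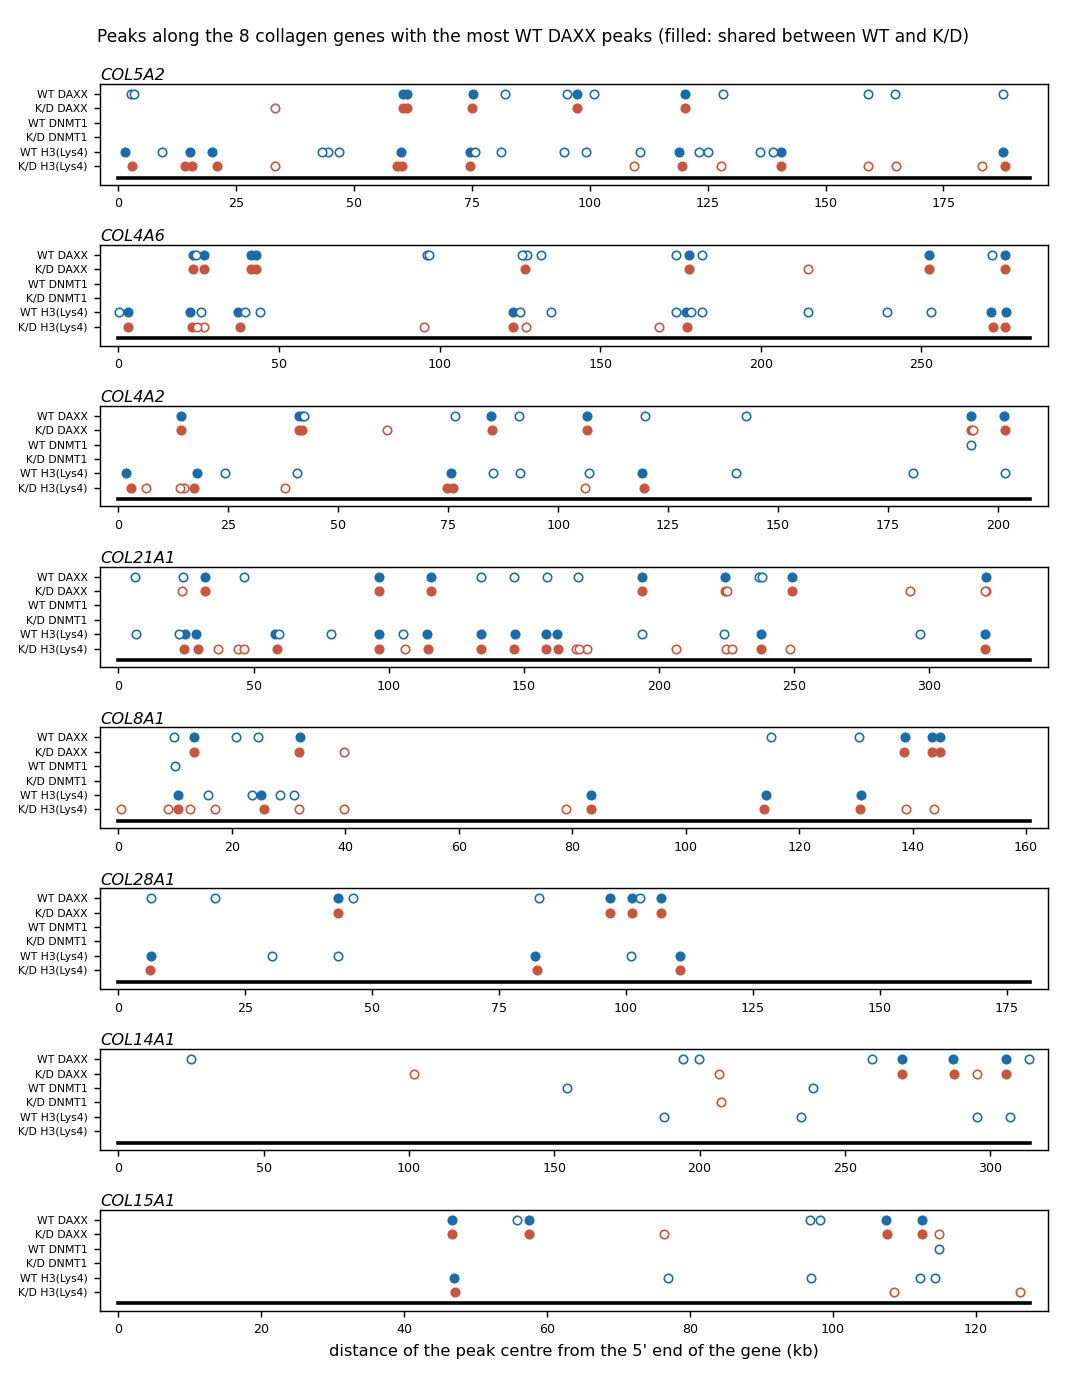
Centres of peaks along the 8 collagen genes with the most WT DAXX peaks (horizontal axis, distance from the 5′ end of the gene in kb), 1 row per list, with WT in blue and K/D in red. Filled circles are shared between WT and K/D and open circles are not. COL5A2 shows 14 WT and 6 K/D DAXX peaks, COL8A1 shows the WT DNMT1 peak beside an open WT DAXX peak, and COL14A1 has an empty K/D H3(Lys4) row.

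DAXX peaks of the collagens often carried the letters of an AP-1 site, the binding motif of FOS and JUN dimers. The motif was searched as TGACTCA or TGAGTCA on both strands within 100 bp of the peak centre, and a match is a description of the sequence and not a measured site. It was present in 58 of 162 WT peaks (35.8%, 28.4 to 43.7), against 36.2% of all WT DAXX peaks, and in 45 of 106 K/D peaks (42.5%, 32.9 to 52.4), against 35.4%. Among the WT peaks, 35 of 76 shared peaks held it (46.1%, 34.5 to 57.9) and 23 of 86 unshared peaks (26.7%, 17.8 to 37.4). Over the whole WT list the shares were 40.4% of shared and 32.2% of unshared peaks. By class it was in 8 of 35 fibrillar, 17 of 40 basement membrane and 33 of 87 other WT peaks. The sequences below are from the 5 earliest collagen peaks of each kind (shared WT, unshared WT and unshared K/D). They hold the motif within the peak and were read from the GRCh37 genome on the plus strand. They were chosen because they hold the motif, which is in capitals, and are shown as examples of where it lies. The shared peaks lie in intron 1 of COL8A1 (chr3:99370515-99370687, place 526 of the WT list), intron 2 of COL13A1 (chr10:71624306-71624478, place 1130) and intron 11 of COL28A1 (chr7:7532216-7532388, place 1579).
COL8A1 shared: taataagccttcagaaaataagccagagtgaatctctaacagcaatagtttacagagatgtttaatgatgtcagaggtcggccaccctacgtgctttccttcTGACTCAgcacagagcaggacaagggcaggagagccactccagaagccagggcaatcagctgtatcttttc
COL13A1 shared: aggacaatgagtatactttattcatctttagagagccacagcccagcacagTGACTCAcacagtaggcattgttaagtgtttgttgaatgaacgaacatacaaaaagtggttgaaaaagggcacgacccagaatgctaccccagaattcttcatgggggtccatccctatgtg
COL28A1 shared: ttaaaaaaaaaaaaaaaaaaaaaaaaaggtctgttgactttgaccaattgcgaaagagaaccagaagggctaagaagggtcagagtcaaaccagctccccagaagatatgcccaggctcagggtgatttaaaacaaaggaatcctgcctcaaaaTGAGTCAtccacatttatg
COL8A1 WT, not shared: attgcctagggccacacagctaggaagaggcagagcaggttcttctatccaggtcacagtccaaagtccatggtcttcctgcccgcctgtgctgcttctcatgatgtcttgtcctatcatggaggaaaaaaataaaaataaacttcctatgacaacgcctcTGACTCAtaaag
COL13A1 K/D, not shared: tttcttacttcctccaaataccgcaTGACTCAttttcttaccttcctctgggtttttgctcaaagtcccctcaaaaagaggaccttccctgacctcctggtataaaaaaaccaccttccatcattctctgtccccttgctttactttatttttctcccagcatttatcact
COL21A1 K/D, not shared: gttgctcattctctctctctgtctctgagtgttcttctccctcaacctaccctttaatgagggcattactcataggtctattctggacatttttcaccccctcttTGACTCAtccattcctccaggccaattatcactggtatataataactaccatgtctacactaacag

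The last 3 sequences are unshared peaks. The COL8A1 peak without a K/D partner (intron 1, chr3:99367042-99367214) was the earliest unshared collagen peak of the WT list, at place 6954. The K/D peaks without a WT partner are in intron 1 of COL13A1 (chr10:71579761-71579931, place 15279 of the K/D list) and intron 5 of COL21A1 (chr6:56033519-56033689, place 17927). Of the 5 earliest unshared collagen peaks of each list, 2 in WT and 2 in K/D held the motif within 100 bp of the centre, against 4 of the 5 earliest shared WT peaks. These sets stood at unlike places, the shared at 123 to 1760 and the unshared WT at 6954 to 18381. The unshared K/D peaks stood at 15279 to 19066 of their list, and the part of place in the motif counts was not tested. Another of these unshared K/D peaks, at chr6:75915848-75916018 and place 18927, lay 164 bp upstream of a COL12A1 TSS and held no AP-1 letters.

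Other motifs were searched in the same windows on both strands. The RUNX letters TGTGGT were in 21.6% of WT collagen peaks (15.5 to 28.7), against 20.1% of all WT DAXX peaks. The TEAD letters GGAATG were in 19.8% (13.9 to 26.7), against 15.6%, and the nuclear receptor half-site TGACCTC or TGACCTT in 21.6% (15.5 to 28.7), against 21.5%. The letters found often at promoters were in few collagen peaks, and both intervals contained the share of all WT DAXX peaks. The GC box GGGCGG was in 7 of 162 (4.32%, 1.75 to 8.70), against 8.50%, and the ETS core CGGAAG in 4 (2.47%, 0.677 to 6.20), against 4.71%.

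DNMT1 peaks were sparse in collagens, as in the rest of the genome. In WT cells 6 DNMT1 peaks lay inside 5 of the 44 genes, against 5.05% of all genes with one, and in K/D cells 2 lay inside 2 genes, against 1.54%. The densities were 0.0897 per 100 kb in WT (0.0329 to 0.195) and 0.0299 in K/D (0.00362 to 0.108), against 0.102 and 0.0269 over all genes. Only the COL8A1 peak lay within 10 kb of a TSS, where 2.55% of all genes had a WT peak, and no K/D peak did, where 0.89% had one. None of the 6 WT and none of the 2 K/D peaks was shared, which allows up to 45.9% and 84.2%, against 8.59% and 32.3% of all DNMT1 peaks. Every one of the 8 stood outside the first 40% of its list.

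The WT DNMT1 peaks were in COL13A1 (intron 2, chr10:71605556-71605684, place 1302 of 2237), COL8A1 (intron 1, chr3:99367297-99367425, place 1464), COL15A1 (intron 35, chr9:101820245-101820373, place 1573), COL14A1 (at places 1934 and 1935) and COL4A2 (intron 40, chr13:111151940-111152068, place 2044). The first 3 lay on a WT H3(Lys4) region, against 37.7% of all WT DNMT1 peaks. The K/D peaks were in COL5A1 (intron 4, chr9:137617433-137617553, place 305 of 600) and COL14A1 (place 418), neither on an H3(Lys4) region, against 20.8% of all K/D DNMT1 peaks.

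Of the 6 WT DNMT1 peaks, the COL4A2 peak alone lay on a DAXX peak of the same cells (16.7%, 0.421 to 64.1), against 52.6% of all WT DNMT1 peaks. Neither K/D peak did, against 34.1% of all K/D DNMT1 peaks. That DAXX peak, chr13:111151925-111152097, stood at place 43703 and was shared with K/D. The COL8A1 DNMT1 peak lay beside the unshared WT DAXX peak printed above, with 82 bases between them, and its nearest K/D DAXX peak was 3070 bp away. The COL15A1 DNMT1 peak had its nearest WT DAXX peak 2293 bp away but overlapped a K/D DAXX peak, at place 29887 of the K/D list. The sequence of the COL4A2 peak is shown because it is where DNMT1, DAXX and the AP-1 letters (capitals) met in a collagen gene.
COL4A2 DNMT1 peak: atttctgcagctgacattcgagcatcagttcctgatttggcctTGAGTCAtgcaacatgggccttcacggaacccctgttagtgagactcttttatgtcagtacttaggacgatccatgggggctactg

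The H3(Lys4) regions stood at the starts of about as many collagens as of genes in general. A region lay within 10 kb of a TSS, by its centre, for 32 collagens in WT (72.7%, 57.2 to 85.0), against 71.3% of all genes, and for 29 in K/D (65.9%, 50.1 to 79.5), against 70.4%. A region centre lay inside 30 collagens in WT and 37 in K/D, against 66.6% and 65.1% of all genes. Inside the collagens there were fewer regions per length than over all genes, which are shorter (median 27 kb against 145 kb). No comparison with long genes was made for this mark, and the part of gene length in the difference was not tested. The 173 WT regions gave 2.59 per 100 kb (2.22 to 3.0), against 3.22 over all genes, and the 156 K/D regions 2.33 (1.98 to 2.73), against 3.18. They covered 2.86% of collagen gene length in WT and 2.11% in K/D, against 3.85% and 3.11% of all genes.

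The other collagens had 1.92 regions per 100 kb in WT (1.52 to 2.40), while the fibrillar class had 3.46 (2.56 to 4.57) and the basement membrane class 3.78 (2.77 to 5.04). In K/D the 3 values were 1.97, 3.17 and 2.55. Single genes held many of these regions. COL5A2 held 21 of the 49 fibrillar regions in WT and 16 of 45 in K/D. COL4A6 held 19 of 46 and 12 of 31 in the basement membrane class, and COL21A1 19 of 78 and 22 of 80 in the other collagens. The part of single genes in the class values was not tested. Basement membrane collagens held 46 regions in WT and 31 in K/D, covering 51.8 and 27.3 kb, with more regions in WT in 5 of the 6 genes. The share of regions on which the lines overlapped was 41.6% of the WT regions (34.2 to 49.3) and 50% of the K/D regions (41.9 to 58.1), against 45.8% and 48.2% of all regions. These are stitched regions, and with peak centres within 100 bp as the rule only 9.83% and 10.9% were shared.

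A region with any part within 1 kb of a TSS was found for 24 of 44 collagens in WT (54.5%, against 58.1% of all genes). In K/D it was found for 21 (47.7%, against 55.1%). Both lines had it at 17 genes, WT alone at 7, K/D alone at 4, and neither at 16. COL1A1, COL5A1 and COL17A1 were among those with a region in both lines, and COL1A2, COL3A1 and COL7A1 among those with none. All 6 type IV genes had one in WT, and 5 had one in K/D, COL4A6 being the exception. At the COL4A1/COL4A2 promoter the WT region chr13:110957291-110962272 spanned both starts, and the nearest K/D region by centre, chr13:110959676-110962243, began downstream of the COL4A2 start. At COL4A5/COL4A6 the WT region chrX:107682025-107682877 spanned the COL4A6 start, and the nearest K/D region, chrX:107683712-107686963, began downstream of the COL4A5 start. At COL4A3/COL4A4 the WT region chr2:228028041-228029209 spanned the COL4A4 start, and the K/D region, chr2:228028427-228030156, spanned both starts.

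DAXX and H3(Lys4) met in collagens about as often as elsewhere. Of the WT DAXX peaks inside collagens, 62 of 162 lay on a WT H3(Lys4) region (38.3%, 30.8 to 46.2), against 37.4% of all WT DAXX peaks. In K/D cells 28 of 106 did (26.4%, 18.3 to 35.9), against 28.7%. The fibrillar class had 19 of 35 in WT (54.3%, 36.6 to 71.2), the basement membrane class 16 of 40 (40%, 24.9 to 56.7) and the other collagens 27 of 87 (31.0%, 21.5 to 41.9). Shared and unshared WT DAXX peaks lay on H3(Lys4) regions in 27 of 76 and 35 of 86 cases. A WT DAXX peak within 10 kb was present at 13 of the 24 collagens with a WT H3(Lys4) region at a TSS and at 9 of the 20 without.

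The proteins that make, process and read collagen chains were examined through 5 gene lists. Collagen chains are hydroxylated, glycosylated and folded in the endoplasmic reticulum by prolyl and lysyl hydroxylases and chaperones. Of the 17 genes of this list, 14 had a WT DAXX peak no more than 10 kb from a TSS (82.4%, against 51.2% of all genes). A K/D peak was found for 4 (23.5%, against 41.8%), all 4 among the 14. These 4 of 14 were 28.6% (8.39 to 58.1), while 69.2% of all genes with a WT peak also had a K/D peak. In 13 of the 17 the WT peak lay within 1 kb of a TSS (76.5%, against 25.7% of all genes). A K/D peak lay as near in 3 (17.6%, against 19.2%), all among the 13. These 3 of 13 were 23.1%, against 53.2% over all genes with so near a WT peak. The WT peaks of the list stood late, with the nearest peaks at a median of 67.3% of the way down the list, against 54.4% for all genes with one. With lists of equal length 8 genes stood against 4 (47.1% and 23.5%, against 39.7% and 41.8% of all genes). The part of list position and list length in this difference was not tested.

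In that list, PLOD3 and PLOD2, which encode lysyl hydroxylases, had peaks in both lines. PLOD3 had one 22 bp upstream of a TSS in WT and 17 bp upstream in K/D, and PLOD2 had one 66 bp and 89 bp upstream. SERPINH1, the collagen chaperone HSP47, had a WT peak 427 bp past a TSS, and its nearest K/D peak lay 24779 bp upstream.

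The list of propeptide removal and cross-linking enzymes had 12 of 14 genes with a WT peak and 11 with a K/D peak, all 11 among the 12 (85.7% and 78.6%, against 51.2% and 41.8% of all genes). Lists of equal length gave 9 in WT and 11 in K/D (64.3% and 78.6%, against 39.7% and 41.8% of all genes). LOXL2, LOXL4 and LOXL1, lysyl oxidases that cross-link collagen, were the genes with the earliest peaks. LOXL2 had its nearest peak 118 bp upstream of a TSS in WT and 123 bp upstream in K/D. LOXL4 had one 1390 bp upstream and 1389 bp upstream, and LOXL1 had one 1926 bp and 1862 bp downstream.

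Of 11 collagen receptors, 7 had a WT and 6 a K/D peak (63.6% and 54.5%, against 51.2% and 41.8% of all genes). ITGB1, the beta subunit of the collagen-binding integrins, had a WT peak 125 bp upstream and its nearest K/D peak 13448 bp upstream. CD44 had one 55 bp upstream in WT and 130 bp upstream in K/D, and ITGA1 one 1156 bp and 6 bp upstream. Of 10 collagen-degrading proteases, 5 had a WT and 4 a K/D peak, 3 genes having both. At 50% and 40% this was near the 51.2% and 41.8% of all genes. Lists of equal length gave 3 and 4 (30% and 40%, against 39.7% and 41.8% of all genes). The collagenase MMP13 had peaks 83 bp upstream in WT and 22 bp upstream in K/D. MMP1 had one 100 bp upstream in WT and the nearest K/D peak 6345 bp downstream, and MMP3 one 2812 bp and 2793 bp upstream.

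Of 15 basement membrane partners, the laminins, nidogens and proteoglycans that assemble with type IV collagen, 11 had a WT and 12 a K/D peak (73.3% and 80%, against 51.2% and 41.8% of all genes), and 10 had both. LAMA5 had a peak at place 605 of the WT list, LAMB3 at place 698 and LAMA3 at place 1069, and each also had a K/D peak within 10 kb. The bars by gene list show the 5 lists beside the collagens.

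**Figure D5:**
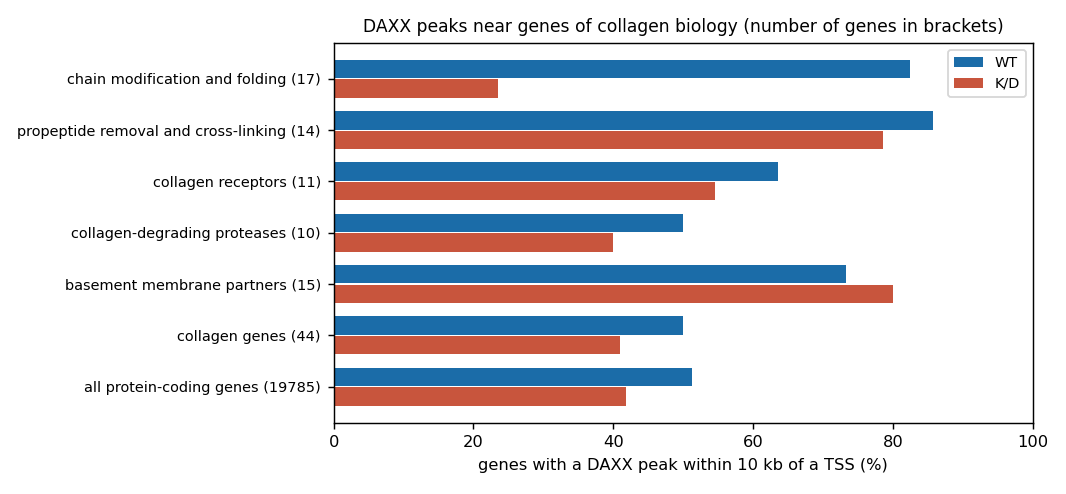
Genes with a DAXX peak within 10 kb of a TSS (horizontal axis, percent of the genes of each list) in WT (blue) and K/D (red), with the number of genes in brackets. The chain modification and folding list is at 82.4% in WT and 23.5% in K/D, while the collagens, at 50% and 40.9%, sit next to all protein-coding genes, at 51.2% and 41.8%.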

How the data were processed

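The series holds 8 ChIP-seq libraries of PC3 cells, of which the 2 inputs have no peak list. The authors aligned reads to hg19 with Bowtie2 2.1.0, after CASAVA 1.8.2, and called peaks with HOMER 4.6, per the submitters' processing notes. Per the file headers, DAXX and DNMT1 peaks were called in factor style at an FDR of 0.001 and H3(Lys4) in histone style, which stitches neighbouring peaks, at a Poisson p of 0.001. All needed 4-fold over the input, a p of 1e-04 over the input and 4-fold over the surrounding 10 kb. Each tag directory joined an old and a new run. The deposited columns used here are coordinates, and the deposited score is the same for every peak, so the place in the list was used in place of strength, as HOMER sorts its peaks, and no column here measures it. This order is less certain for H3(Lys4) and K/D DNMT1.

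BED starts were raised by 1, so that coordinates are 1-based. Genes and exons came from GENCODE 44 lifted to GRCh37, 1 entry per symbol, with the starts of basic protein-coding transcripts as TSS. A gene's span can reach beyond these starts, and introns were numbered in the canonical transcript. Peaks on other contigs (3 to 36 per list) were left out. Overlap functions were checked on simulated peaks with known answers. Python 3.11.15, pandas 2.3.3, SciPy 1.17.1 and pysam 0.24.0 were used. No test was made, since each group is 1 library.

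Members and gene lists were chosen with earlier results of these data known. Named were, per class, the 6 genes with the most WT DAXX peaks, genes with a DNMT1 peak, genes with K/D but no WT DAXX peak, the 5 earliest shared and unshared peaks of the DAXX lists, and 3 genes per pathway list by earliest WT DAXX peak. COL1A1, COL6A2, COL7A1, COL8A2, COL12A1 and COL17A1 fall outside this rule and were named after their values were seen. The same holds for the genes named for an H3(Lys4) region or for holding no DAXX peak.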

Additional observations from a re-analysis of the deposited data

How the results depend on the processing

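Of 148 recomputed values, 109 stayed within 1.5 times the reported count or within the interval of the reported share, and 39 did not. Lists of equal length for counts near a TSS, by class and by pathway list were added after seeing the data.

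Collagens with a peak within 1 kb of a TSS numbered 7 in WT and 5 in K/D for DAXX (15.9% and 11.4%, against 25.7% and 19.2% of all genes). They numbered 0 in WT for DNMT1. For H3(Lys4) they numbered 21 in WT and 18 in K/D by region centre, where any overlap with the window gave 24 and 21. Within 5 kb there were 11 for K/D DAXX and 0 for WT DNMT1, and the outermost starts alone gave 0 for WT DNMT1. From the first 50% of each list, 10 collagens had a WT DAXX peak near a TSS, 11 a K/D DAXX peak and 0 a WT DNMT1 peak. That limit left 73 WT and 51 K/D DAXX peaks, 0 and 0 DNMT1 peaks, and 77 and 75 H3(Lys4) regions inside collagens. Lists of equal length left 0 WT DNMT1 peaks inside and 0 near a TSS. Apart from the DAXX counts within 1 kb, these counts were not set beside all genes under the same rule. They therefore do not show whether collagens differ from other genes.

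The shared share of WT DAXX peaks was 57.9% with lists of equal length and 71.2% for the first 50% of the WT list. For H3(Lys4) the WT share was 9.83% with centres within 100 bp, 23.1% with 50% of each region in common and 62.3% for the first 50% of the WT list, and the K/D share was 10.9% and 25.0% under the first pair of rules. No share could be computed for DNMT1 where no peak was left.

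Motif windows of 50 bp gave 15.4% (RUNX) and 11.1% (TEAD) of WT peaks, and 31.1% (AP-1), 0% (ETS core) and 8.49% (TEAD) of K/D peaks. Within 1 kb of a TSS, 4 WT and 4 K/D cross-linking genes, 2 and 2 protease genes, and 6 and 2 basement membrane partners had a DAXX peak. These were 28.6% and 28.6%, 20% and 20%, and 40% and 13.3%, against 25.7% (WT) and 19.2% (K/D) of all genes. With lists of equal length, 8 modification and folding genes and 3 protease genes had a WT peak (47.1% and 30%, against 39.7% of all genes). The cause of these moves was not tested, beyond the fewer peaks or narrower windows that each rule itself leaves. With 2234 and 595 peaks and 0.26% and 0.07% of tags in them, the DNMT1 lists limit what their absence in a gene can show.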
